A study of Mus musculus with 8 samples.

Results

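Open chromatin was compared between granule neuron progenitors (GNPs) that were wild type (WT) and GNPs that were heterozygous (het) for Chd7, as the peaks that ATAC-seq gave in each. The peaks were all those on the autosomes of the assembled genome, 149637 of 152984 in the WT list and 104396 of 106974 in the het list. Together they made 254033 of the 434365 peaks in the 3 deposited lists, the third being from homozygous mutant GNPs. A peak with 1 bp or more in common with any peak of the other genotype was called shared, and the rest unshared. The labels give all libraries as GNPs of the cerebellum at postnatal day 7, strain C56Bl6/J, with the genotype Chd7 wild type, Chd7 het or Chd7 mutant. In the study's notation WT is Chd7 f/f without Cre, het is Atoh1-Cre::Chd7 f/+ and the homozygous mutant is Atoh1-Cre::Chd7 f/f. The WT animals thus carried floxed alleles but no Cre, so Cre and the lost allele cannot be told apart in this comparison. Atoh1-Cre acts in the granule lineage and, per the study, recombined less in the posterior cerebellum. GNPs were isolated on a density gradient, and other cerebellar cells may remain in such a fraction.

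Each list was called on pooled libraries, 3 for WT and 2 for het, and the study calls the WT libraries technical replicates. Replicate errors can therefore not be given, and differences between the genotypes were not tested. The intervals given are Wilson 95% intervals over peaks, which cover counting error alone. The het list had the lower depth, 30923002 tags after duplicate filtering against 50394313 for WT, a ratio of 0.614. Its header also differs in the settings of MACS2, the peak caller. Het reads came from a folder named for bowtie, were shifted by -100 bp and were extended to 200 bp, whereas WT reads came from a folder named for STAR, were not shifted and were extended by the modelled 90 bp. Het peaks were wider, with a median of 378 bp against 212 bp, and fewer, but the lists covered about the same length, 49.3 Mb and 46.5 Mb. Genotype, depth, alignment folder and caller settings change together between the lists and cannot be told apart. On the Y chromosome, left out here, the WT list had 36 peaks of which 6 lay at start sites, and the het list had 13 with 0 at start sites. The part of sex in the autosomal results was not tested.

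Chd7 encodes an ATP-dependent chromatin remodeller that moves nucleosomes, and loss of a single copy of the human gene causes CHARGE syndrome. In ATAC-seq the Tn5 transposase cuts and tags DNA that nucleosomes do not cover, so peaks mark promoters, enhancers and insulators in use or poised for use. GNPs are the dividing precursors of cerebellar granule neurons. They depend on the transcription factor Atoh1 and on Sonic hedgehog from Purkinje cells, and they switch on neuronal genes when they leave the cell cycle.

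The lists were first checked against markers of the cell type. All 15 GNP markers had a promoter peak, a peak overlapping the 1 kb either side of a start site, in both lists. Heights are given as pileup, the number of extended tags over the summit, and as pileup rank. The rank is a peak's place by pileup among the autosomal peaks of its list, as a percentage. Peaks of equal pileup were given the mean of their places, and the tallest peaks are near 100. Pileup itself was not scaled to depth and was built from tags extended further in het, so only ranks are compared between lists. The tallest peak at the Atoh1 promoter had a pileup of 67 in WT and 114 in het, ranks of 96.6 and 97.04. The corresponding ranks were 99.7 and 99.7 for Zic2, which marks the granule lineage, and 95.9 and 94.7 for Ptch1, the Sonic hedgehog receptor. The lists thus show open GNP promoters in both genotypes.

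The sequences of 7 WT peaks show what the main classes look like, from the plus strand of GRCm38 (mm10). Capitals mark the E-boxes CAGCTG and CAGATG (reverse complement CATCTG), which factors such as Atoh1 can bind, and the nuclear factor I (NFI) motif TTGGCA (reverse complement TGCCAA). The first, chr6:64727767-64728066, is 300 bases of a shared peak of 644 bp upstream of Atoh1. The next 3, labelled WT alone because they had no het peak, were not all absent from the homozygous mutant list. It had a peak over the Cdk5rap2 site (pileup 69) and the Nkain3 site (39), but not over the Cdh9 site. The intronic Cdk5rap2 peak at chr4:70378038-70378278 was the tallest WT peak without a het peak nearby that held no exact repeat at its summit, and the genome's repeat track still masks 54.0% of it. The intronic Nkain3 peak at chr4:20191824-20191986 is a short tandem repeat, whereas the peak at chr15:16639749-16639916 near Cdh9 holds no masked base. The last 3 are pairs, peaks found in both lists with unequal ranks. The intronic Nkain3 pair at chr4:20497226-20497483 ranked lower in het, and the intronic pairs of Unc5c at chr3:141588419-141588537 and of Sox6 at chr7:115904650-115904821 ranked higher.
Atoh1 upstream, shared: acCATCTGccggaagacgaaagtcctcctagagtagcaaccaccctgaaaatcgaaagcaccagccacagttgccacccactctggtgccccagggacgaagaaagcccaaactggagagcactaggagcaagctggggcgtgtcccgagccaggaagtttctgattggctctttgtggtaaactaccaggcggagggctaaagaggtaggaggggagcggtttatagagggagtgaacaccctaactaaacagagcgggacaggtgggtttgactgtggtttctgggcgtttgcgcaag
Cdk5rap2 intron, WT alone: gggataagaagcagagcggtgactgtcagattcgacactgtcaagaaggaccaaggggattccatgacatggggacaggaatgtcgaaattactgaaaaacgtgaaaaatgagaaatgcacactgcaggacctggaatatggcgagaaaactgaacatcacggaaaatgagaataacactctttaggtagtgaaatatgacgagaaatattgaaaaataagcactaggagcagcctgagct
Nkain3 intron, WT alone: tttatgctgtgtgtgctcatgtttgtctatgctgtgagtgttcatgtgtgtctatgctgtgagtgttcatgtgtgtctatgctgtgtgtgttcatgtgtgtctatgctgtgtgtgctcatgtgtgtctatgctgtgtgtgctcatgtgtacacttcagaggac
Cdh9 flank, WT alone: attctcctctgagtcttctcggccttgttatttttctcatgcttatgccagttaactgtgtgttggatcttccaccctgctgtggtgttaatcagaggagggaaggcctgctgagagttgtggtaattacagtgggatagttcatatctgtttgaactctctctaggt
Nkain3 intron, lower in het: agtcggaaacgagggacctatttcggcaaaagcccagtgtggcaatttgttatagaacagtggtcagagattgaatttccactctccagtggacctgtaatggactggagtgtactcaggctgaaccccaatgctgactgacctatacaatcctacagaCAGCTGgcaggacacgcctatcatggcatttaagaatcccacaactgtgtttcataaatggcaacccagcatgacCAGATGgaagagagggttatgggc
Unc5c intron, higher in het: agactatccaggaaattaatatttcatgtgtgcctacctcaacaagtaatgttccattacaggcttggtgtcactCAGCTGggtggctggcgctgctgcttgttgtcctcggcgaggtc
Sox6 intron, higher in het: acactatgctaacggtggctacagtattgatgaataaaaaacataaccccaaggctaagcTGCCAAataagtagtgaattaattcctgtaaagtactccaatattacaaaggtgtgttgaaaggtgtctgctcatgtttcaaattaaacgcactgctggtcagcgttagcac
Such letters are common in open chromatin. In 200 bp at the summit, CAGCTG was found on either strand in 23.5% of all WT peaks and 25.1% of all het peaks, CAGATG in 28.6% and 29.1%, and TTGGCA in 21.7% and 22.2%.

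Most open sites were found in both genotypes, and those found in a single list were mostly low. Of the WT peaks, 63.0% (62.7 to 63.2) overlapped a het peak and 55404 did not (37.0% of the list). Of the het peaks, 86.7% (86.5 to 86.9) overlapped a WT peak and 13889 did not (13.3%). With the WT list reduced by −log10 q to as many peaks as the het list, the order of these shares turned, to 79.3% (79.0 to 79.5) of WT and 77.5% (77.3 to 77.8) of het peaks. The median pileup of unshared WT peaks was 11 against 23 for shared ones, and in the het list the medians were 12 and 27. The median −log10 q, the caller's measure of evidence, was 3.73 for unshared peaks of either list, against 11.6 for shared WT peaks and 12.1 for shared het peaks. The share with a partner grew steeply with height. In the lowest decile of WT peaks 15.9% were shared and in the tallest decile 99.7%, and the corresponding het shares were 42.4% and 99.99%. Deciles are unequal in size because many peaks have the same pileup. At least 50% of WT peaks had a het partner from a pileup of 14 upwards, and at least 90% from 25. For het peaks these pileups were 12 and 18. Among strong peaks (−log10 q at least 10), 1611 of 54671 WT peaks (2.95%, 2.81 to 3.09) and 88 of 51760 het peaks (0.170%, 0.138 to 0.209) were unshared.

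**Figure D1:**
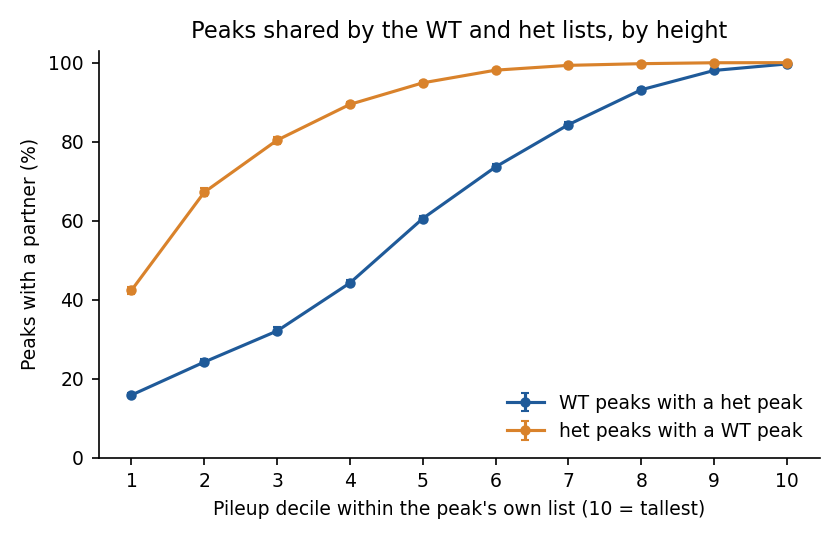
Share of autosomal peaks with an overlapping peak in the other list (percent, y axis) by pileup decile within the peak's own list (x axis, 10 the tallest), for WT and het peaks, with Wilson 95% intervals over peaks. WT shares run from 15.9% to 99.7% and het shares from 42.4% to 99.99%, with the het points above the WT points in every decile.

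Sharing varied little along the genome. By chromosome, the shared part of WT peaks lay between 58.5% on chromosome 14 and 69.7% on chromosome 7, and that of het peaks between 84.7% and 88.7%. Of the unshared WT peaks, 50613 (33.8% of the list) had no het peak within 300 bp. Of the het peaks, 12442 (11.9%) had no WT peak within 300 bp. The homozygous mutant list has a header that names the same kind of folder as the WT list and no shift, but a shorter tag size, 76 bp, and a modelled fragment of 88 bp against 90 bp. It held a peak over 95.2% of shared and 46.1% (45.7 to 46.5) of unshared WT peaks. The corresponding values were 96.2% of shared and 44.4% (43.6 to 45.3) of unshared het peaks.

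Unshared peaks lay away from promoters, but so did shared peaks of the same height. Summits within 1 kb of a transcription start site (TSS) made up 7.24% (7.03 to 7.46) of unshared and 21.1% (20.8 to 21.3) of shared WT peaks. When shared peaks were weighted to the pileup deciles of the unshared ones, their TSS share was 8.20%, so a difference of about a percentage point was left. In the het list the TSS share was 6.93% (6.52 to 7.36) for unshared, 20.7% for shared and 6.40% for weighted shared peaks, the opposite order. Unshared WT peaks were 47.6% intergenic and 41.2% intronic, against 45.7% and 42.4% for weighted shared peaks. The part farther than 50 kb from any TSS was 38.3% (37.9 to 38.7) of unshared and 33.7% of weighted shared WT peaks, and 38.9% and 37.3% in the het list.

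**Figure D2:**
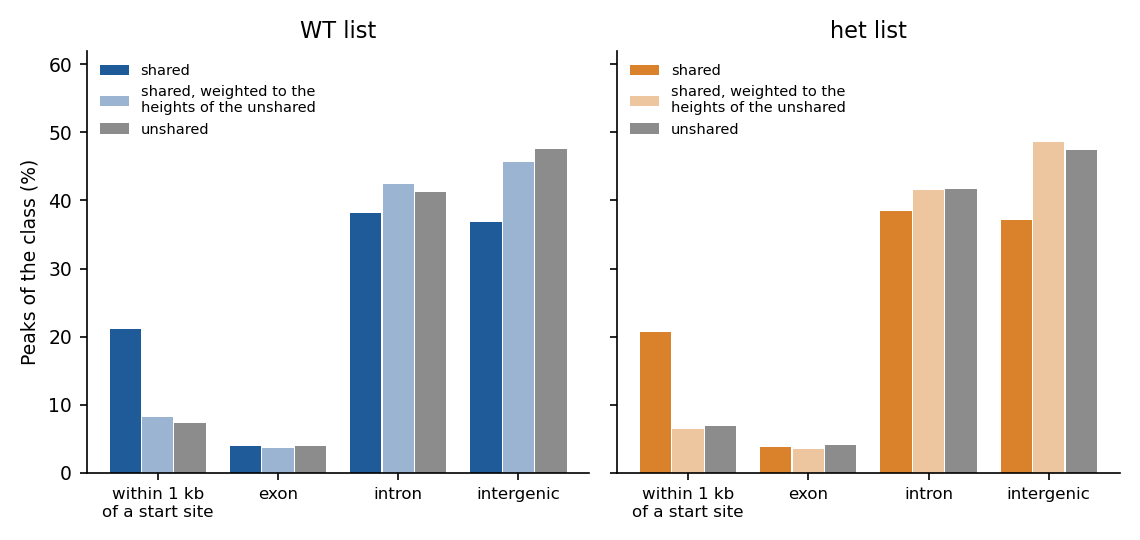
Share of peaks (percent, y axis) at TSSs, in exons, in introns and between genes, for shared peaks, shared peaks weighted to the heights of the unshared, and unshared peaks, in the WT and the het list. Shared peaks have the tallest TSS bars, 21.1% and 20.7%, and the weighted bars lie close to the unshared ones.

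AT-rich WT peaks lacked a het partner more often than GC-rich ones. Of WT peaks with a GC content of at most 40% in the 200 bp at the summit, 50.6% (49.2 to 52.1) were unshared, and of those above 70%, 6.93% (6.27 to 7.65). From their −log10 q alone, by the rate in all WT peaks of the same decile of −log10 q, 43.7% and 11.11% would be unshared. The spread over GC content was thus wider than at equal −log10 q. In the het list the corresponding shares were 18.5% against 18.7% from −log10 q, and 1.29% against 2.65%. The headers name different alignment folders, and the part of alignment in this spread was not tested.

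The tallest WT peaks without a het partner lay mostly in repeated DNA. A summit was called repeated when 1 of 5 stretches of 50 bases around it occurs elsewhere in the genome without a mismatch. Among unshared WT peaks 7.21% (7.0 to 7.43) were repeated, against 1.93% of shared ones and 1.81% after weighting by height. In the tallest decile only 50 of 15019 WT peaks were unshared, and 36 of these 50 (72.0%) were repeated, against 2.17% of the shared ones. In the het list 2.15% of unshared peaks, 1.65% of shared peaks and 2.77% of weighted shared peaks were repeated. Peaks with more than 50% of the 200 bp masked as repeats made up 13.6% of unshared and 4.45% of weighted shared WT peaks, and 8.06% and 5.65% of het peaks. In het, repeated summits were thus the less frequent among unshared peaks, and masked summits the more frequent. How reads that match several sites were placed in each list was not tested.

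By name, the 6 tallest WT peaks with no het peak within 300 bp were all in such DNA. The tallest, chr2:98663768-98664060 in an exon of the predicted gene Gm10801, had a pileup of 121. Next came 4 peaks near the start of chromosome 9 (chr9:3020195-3020319 is the tallest), in or at the predicted genes Gm10719 (94 and 83), Gm10718 (93) and Gm10717 (81). The sixth lay in an intron of Tmem267 on chromosome 13, with a pileup of 79. The mutant list had a peak over each of these 6 sites, with pileups between 76 and 106.

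Outside repeated DNA, tall unshared WT peaks mostly lay close to other WT peaks. Of the 290 peaks of the 2 tallest deciles with no het peak within 300 bp, 191 had no repeated 50-mer and less than 25% masked bases, limits set after the values were seen. Of these 191, 79.1% (72.7 to 84.2) had another WT peak within 2 kb, against 36.8% of 28313 shared peaks of the same kind, and their median fold enrichment over the local background was 3.63 against 9.70. Among the tallest were peaks at the TSS of Gm30731 (pileup 55), in an exon of Irs1 (54), which encodes an insulin receptor adaptor, and in an intron of Setd5 (52). Of the 191, 84.3% (78.5 to 88.8) had a mutant peak. Peaks that stood alone, with no other WT peak within 5 kb, were lower. The tallest of these were in an intron of Ppp2r2c (pileup 36, mutant 27) and near Cdh9, a neuronal cadherin gene (pileup 32, fold enrichment 12.3). The Cdh9 site, printed above without any masked base, had no mutant peak either. An intronic site of Fam19a2 (pileup 29, fold enrichment 9.69) likewise had neither a het nor a mutant peak.

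Tall het peaks without a WT partner were rare. Only 3 het peaks of the 2 tallest deciles had no WT peak within 300 bp. A pair of these was in an intron of the predicted gene Gm15319, the taller at chr8:20367891-20368425 with a pileup of 93 and a fold enrichment of 8.30, and the other with a pileup of 52. Both were repeated, and neither had a mutant peak. The third was at the TSS of Junos, a gene beside Jun, with a pileup of 69 but a fold enrichment of only 1.88. The next were intronic in Pcca (pileup 49), at the TSS of 8430419K02Rik (44) and intronic in Tppp3 (43). No het peak that stood alone and was free of repeats ranked above 56.3. Peaks at that rank lay in an exon of Gm26574 and at the TSS of Wdr18.

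Sequence motifs were counted in the 200 bp at each summit, on both strands, as exact letters. Of 16 motifs searched, that of CTCF, the insulator protein, had the lowest share in unshared het peaks relative to shared het peaks of equal height. It was found in 3.85% of shared WT peaks, in 2.15% (2.03 to 2.27) of unshared ones and in 2.26% of weighted shared ones. In the het list it was found in 3.87% of shared peaks and 2.49% of weighted shared peaks but in only 0.763% (0.631 to 0.922) of unshared ones, 106 of 13889. Het peaks with this motif thus rarely lacked a WT partner. The GC box GGGCGGG, typical of promoters, was found in 2.57% of unshared and 3.04% of weighted shared WT peaks, and in 2.30% and 2.62% of het peaks. The E-box CAGCTG was found in 20.2% (19.9 to 20.5) of unshared against 24.5% of weighted shared WT peaks, and in 20.3% (19.6 to 20.9) against 23.4% in the het list. TTGGCA was found in 19.4% against 23.9% of WT peaks and 19.1% against 22.98% of het peaks. Unshared peaks of either list thus held these 2 motifs less often than shared peaks of equal height. This was not particular to them, as most of the 16 motifs had the same order. The homeodomain motif, for example, was found in 4.17% against 5.46% of WT peaks and 4.74% against 5.49% of het peaks. The YY1 motif went the other way in both lists, and the AP-1, Sox and Mef2 motifs in the het list alone. Over all WT peaks the CTCF motif was in 3.22% and GGGCGGG in 6.77%, and over all het peaks in 3.46% and 8.30%.

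Where a WT peak and a het peak overlapped each other and no other peak, they were compared as a pair. There were 85532 pairs, with summits a median of 29 bp apart and 87.8% within 100 bp. Pileup ranks in the lists followed each other closely (Spearman correlation across pairs 0.916, a description, since pairs are not replicates). A further 8279 WT peaks lay 2 or more under a single het peak, as 4053 wider het peaks spanned them. Of the pairs, 82.0% had a lower rank in het, with a median change of -6.83 points. The het list holds fewer of the low peaks over which ranks are counted, and re-ranked among the pairs alone, the median change was 0.156.

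**Figure D3:**
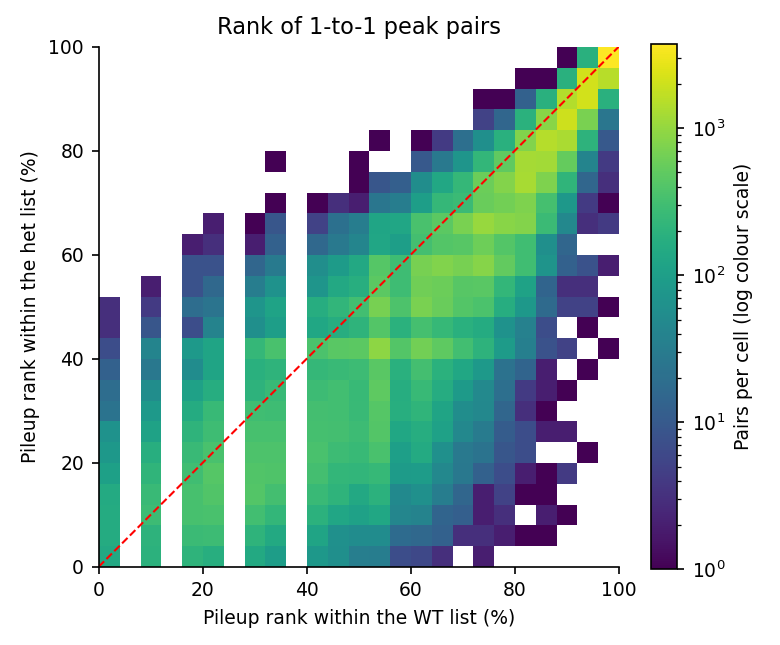
Pileup rank of 85532 pairs in the WT list (percent, x axis) and in the het list (percent, y axis), with colour for the number of pairs per cell on a log scale and the dashed line of equal rank. Most pairs lie below the line, with a median change of -6.83 points, and they meet it at the tallest ranks.

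The same re-ranking removed the apparent difference between promoters and other sites. At TSSs the median rank change was -2.99 points in 16933 pairs, and elsewhere -8.37 points in 68599 pairs, a difference of 5.39. Among the pairs alone the medians were 0.214 and 0.136, a difference of 0.0783. By contrast, some classes stayed lower in het after re-ranking. Pairs with a repeated summit changed by -14.99 points, or -6.43 among the pairs alone. Pairs of more than 50% masked bases changed by -14.9, or -4.06. Pairs with a GC content of at most 40% changed by -12.9, or -2.31, and those above 70% by -2.37, or 0.566. Pairs with a CTCF motif changed by -11.3, or -1.50 among the pairs alone. Set against pairs of the same WT pileup decile and 1 of 8 groups of WT peak width, the CTCF pairs differed by -0.153 points, the repeated pairs by -6.94 and the AT-rich pairs by -3.10.

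Large shifts were few. A rank 40 or more points lower in het was found in 1569 pairs (1.83%), and a rank 25 or more points higher in 370 pairs (0.433%). These limits are unlike, so the 2 counts cannot be set against each other. Re-ranked among the pairs alone, 1217 pairs (1.42%) were lower in het by 30 points or more and 740 (0.865%) higher by as much. Of the 1569 pairs lower in het, 12.9% were repeated, against 2.37% of all pairs and 2.43% of the 370 pairs higher in het. TSSs made up 6.82% of the pairs lower in het and 4.05% of those higher in het, against 19.8% of all pairs. Where the mutant list had a peak, its rank lay closer to WT than to het in 1189 of 1500 pairs lower in het (79.3%) and in 52 of 335 pairs higher in het (15.5%), against 69.3% of all pairs. The median mutant rank was 55.7 for the former, between WT (63.2) and het (14.3). For the latter it was 49.0, above both WT (8.97) and het (43.1). The pairs were chosen by extreme WT and het ranks, and these shares are descriptions of that choice.

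The 6 pairs with the largest drop in rank were all repeated. They included the TSS of Dynlt1c (chr17:6601273-6601929, pileup 50 in WT and 14 in het), a dynein light chain gene with near-identical copies, and a site 55.3 kb from Pdia4 (41 and 11, ranks 87.0 and 5.72). Without repeated or masked DNA, the largest drops were in an intron of Slc14a2, a urea transporter gene (29 and 11, ranks 76.7 and 5.72), at chr17:59762167-59762672 (28 and 11) and at chr2:43097928-43098135, 444 kb from Lrp1b (29 and 12). At the last of these the mutant pileup was 13. The 6 largest gains were free of repeats. They lay near Ccnh, a cyclin gene (chr13:85126994-85127189, 10 in WT and 31 in het, ranks 16.1 and 62.8, mutant 15), in introns of Kcnn2, a potassium channel gene (9 and 26, mutant 25), Sox6, a transcription factor gene (7 and 22, ranks 0.586 and 45.7, mutant 20), and D6Ertd527e (7 and 22), in an exon of C630028M04Rik (10 and 30), and at the TSS of Gm10610 (8 and 23). The Sox6 peak printed above has a single NFI motif and no E-box of the kinds marked. Tags were extended further in het, so the larger het pileups are not by themselves a gain.

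Nearly all protein-coding genes with a promoter peak in a list had one in the other list too. Among 20780 such genes on autosomes, 14223 had a promoter peak in both lists and 5738 in neither. Of 14849 protein-coding genes with a WT promoter peak, 626 had none in het (4.22%), and of 14416 with a het promoter peak, 193 had none in WT (1.34%). The tallest peak was itself unshared at 613 of the 626 and at 174 of the 193, and the rest overlapped a peak of the other list that lay outside the 1 kb. The 626 promoters were low, with a median rank of 30.1 against 92.3 for all WT promoters, and 15.02% were repeated against 3.004%. Only 13 ranked above 80 and 12 of these were repeated, among them that of the multicopy histone gene Hist2h2aa2 (pileup 64). The exception was Rtn4rl2, a Nogo receptor family gene (39, rank 85.8). The 193 het promoters had a median rank of 14.3. The names given here were chosen after the values were seen.

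At the 14223 promoters with a peak in both lists, the median rank was 93.1 in WT and 89.97 in het. The het rank was the higher in 2440 of them (17.2%) and lower by 20 points or more in 549 (3.86%). Of the 15 GNP markers 0 were lower by 20 points, with changes from -16.9 (Barhl1) to 0.444 (Atoh1). Of 31 genes of granule neuron maturation 3 were (9.68%). Lists of 15 and 31 genes are too small to be read against the 3.86% of all genes. The GABA-A receptor subunit gene Gabra6, which mature granule cells express, had a promoter pileup of 18 in WT and 13 in het, ranks of 55.5 and 14.3. The NMDA receptor subunit gene Grin2c had 19 in both, ranks of 58.3 and 37.3, and Bmp5, which encodes a growth factor, had 15 in both, ranks of 45.003 and 22.965. In the same list Stmn2 ranked 99.8 and 99.1 and Neurod1, a driver of granule neuron differentiation from another list, 98.98 and 98.4. The 3 lower promoters were of middling height, where ranks move most between the lists. Pairs of the sixth WT decile, pileups of 17 to 19, changed by a median of -12.6 points.

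Peaks over gene bodies were then followed in lists of genes, each set against all WT peaks of the same decile of −log10 q and the same location. A gene was given the peaks that touch its body, extended by 5 kb at its start and by 1 kb at its end. List members named below for their pairs were chosen after their values were seen. Over all protein-coding genes 26703 of 82283 WT peaks (32.5%) and 6536 of 59764 het peaks (10.9%) were unshared. In the 15 GNP genes 42 of 134 WT peaks were unshared, 31.3% (24.1 to 39.6) against 29.7% at equal −log10 q and location, and 7 of 98 het peaks (7.14%). Their pairs ranked above the median of pairs of the same WT height and width in 60 of 84 cases (71.4%), against 51.6% over all protein-coding genes. Gli2, the main activator of hedgehog targets, had 31 WT and 24 het peaks, with 15 of 22 pairs above. Boc, a hedgehog co-receptor gene, had 9 of 11 above, and the cyclin gene Ccnd2, a hedgehog target, 5 of 6 with ranks of 96.4 and 86.0 at the promoter. Sfrp1, a Wnt inhibitor gene, had both of its pairs below.

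The hedgehog list of 17 genes overlaps the GNP list. It had promoter peaks in both lists at 16 genes and at the ligand gene Shh in neither list. Purkinje cells are known to make that ligand. Of its WT peaks 40 of 155 were unshared, 25.8% (19.6 to 33.2) against 31.3% at equal −log10 q, and 62 of 97 pairs (63.9%) were above. The transducer gene Smo had all 3 pairs below, with promoter ranks of 93.1 and 85.2, whereas Sufu, a negative regulator, had promoter ranks of 97.2 and 98.5. In 20 genes of the bHLH and Notch families all promoters had a peak in both, and 24 of 91 WT peaks were unshared, 26.4% (18.4 to 36.3) against 28.4%. In 23 granule lineage factors 98 of 314 were unshared, 31.2% (26.3 to 36.5) against 31.4%. Nfia, which encodes an NFI factor, had 20 of 28 pairs above, and Pbx3 and St18, both transcription factor genes, had 7 of 9 and 13 of 17 below. The values at equal −log10 q lay within the intervals of these last 2 lists.

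Genes of granule neuron maturation lay near the rate of all WT peaks of like strength, with 246 of 681 WT peaks unshared, 36.1% (32.6 to 39.8) against 35.1%, and 199 of 399 pairs above (49.9%). Within the list, pairs of Sema6a and Plxna2, a guidance ligand and its receptor, were above in 11 of 13 and 13 of 17, and those of Syt1, the synaptic vesicle calcium sensor, were below in 16 of 25. All 9 genes of the Chd family and all 5 topoisomerase genes had promoter peaks in both lists. The topoisomerase genes had 0 of 11 WT peaks unshared, against 12.7% at equal −log10 q, and the interval of that 0 reaches 25.9%. The gene of Top2b, the topoisomerase of neurons that have left the cell cycle, had promoter ranks of 99.8 and 99.6. Of 120 WT peaks over ribosomal protein genes, taken as a housekeeping set, 16 were unshared, 13.3% (8.38 to 20.6) against 9.40%.

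**Figure D4:**
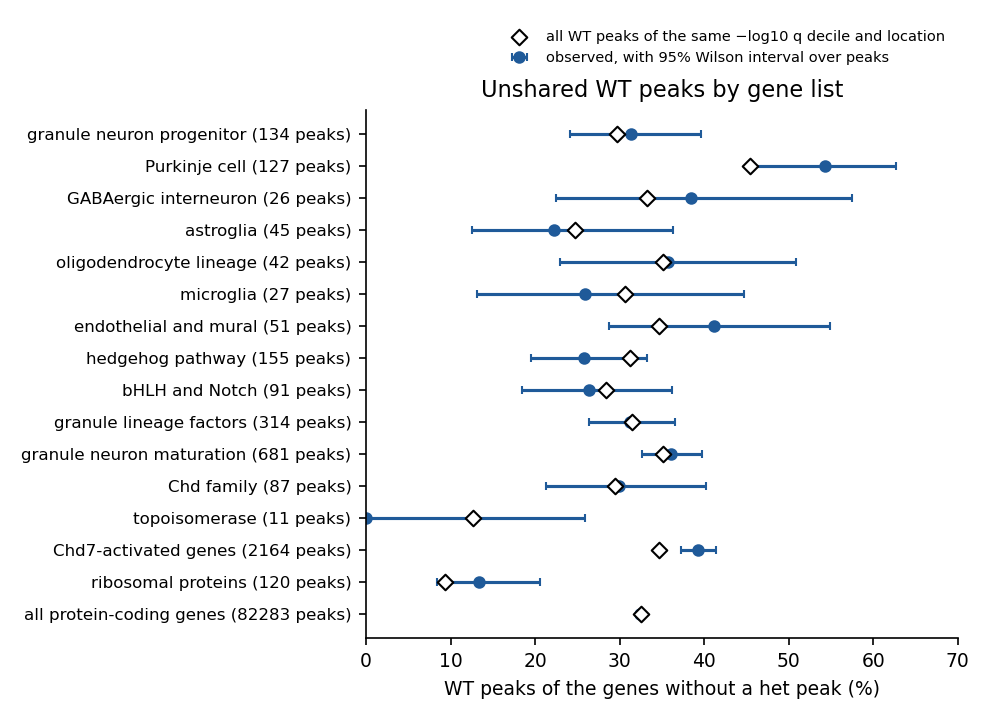
Share of WT peaks over each gene list without a het peak (percent, x axis), with Wilson 95% intervals over peaks, and as diamonds the share in all WT peaks of the same −log10 q decile and location. Most diamonds lie within the interval. The Chd7-activated genes, at 39.3% against 34.6%, lie to the right of theirs. The Purkinje cell markers, at 54.3% against 45.5%, do so narrowly, with an interval that starts at 45.7%.

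Markers of other cell types were used to see what else the fractions held. Promoters of the Purkinje cell genes Foxp2 and Rora were open in both lists, Pcp2 in neither, and Lhx5 in WT alone (pileup 17, rank 52.4). Of the 127 WT peaks of this list 69 were unshared, 54.3% (45.7 to 62.7) against 45.5%. With GC content added the latter was 46.2%, within the interval. The long genes Foxp2 (31 of 51 unshared) and Rora (27 of 53) gave most of them. Among interneuron markers Pax2 was open in WT alone (16, rank 48.9) and Slc32a1 in neither, and 10 of 26 WT peaks were unshared, 38.5% (22.4 to 57.5) against 33.3%. A pair in an intron of Gad1, which makes GABA, had pileups of 30 and 13, ranks of 77.8 and 14.3. The 7 astroglial promoters were open in both, with 10 of 45 WT peaks unshared, 22.2% against 24.8%. Of the oligodendrocyte markers Cspg4 was open in WT alone (19, rank 58.3) and Sox10 in neither, with 15 of 42 unshared, 35.7% against 35.1%. Of the 6 microglial markers Csf1r was open in WT alone (16, rank 48.9), P2ry12 in both and the other 4 in neither, with 7 of 27 unshared, 25.9% against 30.6%. The 7 endothelial and mural promoters were open in both at lower ranks, a median of 60.9 and 50.4, with 21 of 51 unshared, 41.2% against 34.6%. The 4 promoters open in WT alone ranked between 48.9 and 58.3, each 1 of 6 or 8 markers examined in its list, and 4.22% of all WT promoters likewise had no peak in het. WT alone refers here to the WT and het lists. The mutant list had a peak over those given for Lhx5 (pileup 12), Pax2 (13) and Cspg4 (20), but not over that of Csf1r. The part of other cells in the results was not tested.

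A list of 151 genes comes from the study, which found less of their RNA in GNPs without Chd7. They are called Chd7-activated genes below, and 137 of them were matched on autosomes. Their promoters had a peak in both lists at 128 genes and in neither at 9, and 0 were open in a single list. Over their bodies 851 of 2164 WT peaks were unshared, 39.3% (37.3 to 41.4), against 34.6% at equal −log10 q and location and 35.8% with GC content added, so part of the excess went with GC content. Of the unshared WT peaks 389 (45.7%) had a mutant peak, against 51.0% of those over all protein-coding genes. In the het list 208 of 1480 (14.1%) were unshared, against 13.2%. Their pairs were above the median of like pairs in 549 of 1210 cases (45.4%), against 51.6% over all genes. Like pairs were not matched for GC content, of which the median was 49.5% in this list and 54% over all protein-coding genes. In this list 52.1% of pairs were below, and of all pairs with a GC content above 40% and up to 50%, 52.3% were. Of the 123 protein-coding members with a promoter peak in both lists, 4 were lower by 20 rank points or more (3.25%, against 3.86% of all genes), Bmp5, Efcab6, H2-Q7 and Spata2l. H2-Q7, a histocompatibility gene with near-identical copies, had pileups of 55 and 24. Peaks of a gene are not independent, so the interval is too narrow for a statement about genes.

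Chd7 and 8 further genes that the study names were followed singly. Chd7 itself, 177 kb long on chromosome 4, kept its promoter peak (57 and 69, ranks 94.0 and 88.5). Of its WT peaks 12 of 29 were unshared, 41.4% (25.5 to 59.3) against 35.9% at equal −log10 q and location. Of its het peaks 4 of 20 were unshared, and 10 of 15 pairs were above. In Fstl5, a follistatin-like gene on chromosome 3, the promoter was among the tallest in both lists (85 and 123, ranks 99.1 and 97.8). Over the gene as a whole, 72.7% (55.8 to 84.9) of WT peaks were unshared, against 51.7% at equal −log10 q and location. The tallest of these, at chr3:76220275-76220817, had a pileup of 20 and a fold enrichment of 7.72, and the mutant list had a peak of 16 there. Nkain3, a gene of a sodium pump interacting protein, had 20 of 47 WT peaks unshared, 42.6% (29.5 to 56.7) against 33.1%, and 17 of 25 pairs below. Its pair printed above had pileups of 38 in WT, 21 in het and 19 in the mutant, ranks of 85.1, 43.1 and 58.6, and its sequence holds both E-boxes. Its tallest unshared peak (44 in WT, 39 in the mutant) is the tandem repeat printed above. In Bmp5, 8 of 15 WT peaks were unshared, 53.3% (30.1 to 75.2) against 38.5%. Of its pairs 6 of 7 were below, such as the intronic site at chr9:75778905-75779264 (20 and 17, mutant 10).

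Reln, which encodes the extracellular guide of Purkinje cells, had 15 of 53 WT peaks unshared (28.3% against 29.1%) and 16 of 32 pairs above. Cadps2, a gene of vesicle release, had 14 of 33 unshared (42.4% against 45.8%) and 9 of 19 above. Gap43, a growth cone gene, had 3 of 16 unshared, 18.8% (6.59 to 43.0) against 10.4%. Its promoter had 70 and 71, ranks of 97.2 and 89.1. Neurod1 had 1 of 5 unshared, against 25.4%. Unc5c, a netrin receptor gene, had 13 of 42 unshared (30.95% against 41.9%) and 14 of 26 above, and held the pair printed above, with 10 in WT, 29 in het and 21 in the mutant, ranks of 16.1, 59.7 and 63.7. That site carries a CAGCTG. Of Chd7 and the genes followed singly, Fstl5 alone had an interval that left out the value at equal −log10 q and location.

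To place these genes, the unshared share was set against the value at equal −log10 q and location in every gene with at least 20 WT peaks, 842 in all. The difference had a median of -0.614 percentage points and middle values from -5.96 to 5.09. The value at equal −log10 q lay below the gene's interval in 18 genes (2.14%) and above it in 15 (1.78%). Wilson intervals of the level used here leave out some genes on each side by counting error alone. These shares were no larger than such error would give. The genes at either end, Fstl5 among them, are thus given as places in a ranking, and whether any differs beyond counting error was not tested. Fstl5 was the ninth from the top, with a difference of 21.035 points. The top gene was Sfi1, a centrosomal gene, with 18 of 26 WT peaks unshared, but 20 of its 26 peaks were repeated. Next came Iqcm (18 of 23), the potassium channel gene Kcnt2 (16 of 23, 0 repeated) and the sarcoglycan gene Sgcz (23 of 39). At the other end stood Zfp423, a zinc finger gene required for cerebellar development, with 7 of 47 unshared against 36.95% at equal −log10 q, and the mechanosensitive channel gene Piezo2 (4 of 20 against 42.0%). Gli3, the main repressor of hedgehog targets, was number 5 from the bottom with 6 of 24 against 45.8%, although 11 of its 18 pairs were below. Nkain3 was in place 91, Chd7 in place 201 and Unc5c in place 769 from the top. The genes named here beyond the study's were chosen after their values were seen.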

How the data were processed

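ATAC-seq peaks of P7 GNPs were taken from the lists that the authors deposited, called with MACS2 2.1.0.20150731 on pooled libraries in mm10 with no control and a q cutoff of 0.05. Per the file headers, WT and het differ in alignment folder, shift and extension, while the study's methods describe bowtie and a shift for all libraries. The submitters' processing notes name Bowtie 1.0.0 and STAR 2.5.0b. The authors' pileup is a signal not scaled to depth, their fold enrichment is a ratio of pileup to a local background over 10000 bp, and their deposited −log10 q values depend on depth. Depth after filtering was 50394313 tags for WT and 30923002 for het, and no single library could be measured.

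Overlaps were found by comparing the ends of peaks, with a function checked against bedtools 2.31.1 on simulated intervals. In all, 0 columns were left without a group. Protein-coding and long non-coding genes of GENCODE M21 were used, and each summit was placed at a TSS (within 1 kb), else in an exon, an intron or between genes. Repeated 50-mers were counted at 5 positions over 250 bases around the summit in GRCm38, and masked bases are the lower case letters of that genome. Calculations used python 3.11.15, numpy 2.4.6, pandas 2.3.3 and scipy 1.17.1, and were checked on simulated peaks.

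Named were the members of 15 gene lists whose promoter or tallest peak was unshared, the 6 tallest unshared peaks of each list without a partner within 300 bp, the 6 pairs with the largest drop and the 6 with the largest gain in rank, Chd7 and 8 further genes that the study names (Cadps2, Nkain3, Reln, Bmp5, Fstl5, Gap43, Neurod1 and Unc5c). Further genes, among them the list members named for their pairs, were chosen after their values were seen. Members and lists were chosen with earlier results of these data known. The X and Y chromosomes, mitochondrial peaks and unplaced sequences were left out.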

Additional observations from a re-analysis of the deposited data

Results flagged for a closer look

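Outside the comparison, 71 het peaks lay on 22 sequences that are unplaced or alternative in the assembly, with pileups of up to 266, whereas the WT list held 0 such peaks. These peaks are outside the assembled chromosomes that the comparison uses, and the reference used in alignment and the genotype cannot be told apart as its source.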

How the results depend on the processing

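No paired analysis was possible because each genotype has a single pooled list, and for the same reason no replicate could be left out. Under most settings the values left the interval of the main one. Shares cannot change sign. The difference in rank change between TSSs and other sites stayed positive. With ranks among the pairs alone, its interval of -0.0454 to 0.134 included no difference. The share of WT peaks with a het peak, 63.0%, became 49.985% with 50% reciprocal overlap, 66.2% within 300 bp, 61.2% by the summit, 77.5% for −log10 q of at least 5, 79.3% with lists of equal length, 64.6% after scaling −log10 q to the het tags, and 63.9% without repeated 50-mers. The share of het peaks with a WT peak, 86.7%, became 71.6%, 88.1%, 81.2%, 88.1%, 77.5%, 86.1% and 86.1% in the same order, so with lists of equal length the order of the shares turned, to 79.3% (79.0 to 79.5) of WT against 77.5% (77.3 to 77.8) of het peaks. Adding the X chromosome gave 63.1% and 86.8%. The TSS share of unshared WT peaks, 7.24%, became 9.60% with reciprocal overlap, 5.93% within 300 bp, 7.54% by the summit, 8.32% at a −log10 q of 5 and 7.63% with equal lists, and that of unshared het peaks, 6.93%, became 10.07%, 5.87%, 7.85%, 9.74% and 8.18%, and 7.65% without repeated 50-mers. The median rank change at TSSs less that elsewhere, 5.39 points, became 5.80 by fold enrichment, 6.14 by −log10 q, 5.11 with the tallest partner, 5.02 for WT peaks of 200 bp or more, 2.39 at a −log10 q of 5, 5.16 without repeated 50-mers and 0.0783 with ranks among the pairs alone, since the low unshared peaks then no longer enter the ranks. Leaving out repeated 50-mers was chosen after seeing the data. Unshared peaks were mostly low, and depth, settings and genotype cannot be told apart as the source of a missing partner.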
